A study of Mus musculus with 2 samples.

Results

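The cells described here were intestinal organoid cells that carried large amounts of alpha-defensin RNA and more Defa22 than Defa24. A cell was taken as a member when its 10 genes named Defa plus digits summed to at least 200 per 10000 unique molecular identifiers (UMIs, each counting 1 captured RNA molecule) and its Defa22 level was above its Defa24 level. This rule gave 124 of 2209 cells, 108 of 1241 under DBZ and 16 of 968 under DMSO. They are called Defa22 cells below. The 109 cells that passed the same sum with Defa24 at or above Defa22, 97 under DBZ and 12 under DMSO, are called Defa24 cells, and all cells under the sum are called other cells. The cells were chosen by their alpha-defensin values, so these values are given as a description and support nothing. Just inside the sum in the DBZ library stood cells at 205, 215 and 217 per 10000, and just outside it cells at 199, 190 and 183 with Defa22 above Defa24. The members nearest the second limit held Defa22 at 218 with Defa24 at 217, and the nearest cell on the other side held 288 and 291.

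Alpha-defensins are small antimicrobial peptides that Paneth cells store in granules and release into the crypt of the small intestine. In the mouse they are encoded by a large cluster of very similar genes, and the metalloprotease Mmp7 cuts the precursors to the active peptides. Paneth, goblet and enteroendocrine cells all belong to the secretory lineage, whose formation Notch signalling restrains, and Wnt signalling drives Paneth cell genes. Enteroendocrine cells store hormones in granules built with chromogranins and processing enzymes such as carboxypeptidase E, and Neurog3 starts their differentiation.

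The study treated organoids with mutant Apc, a brake on Wnt signalling, with DBZ, an inhibitor of the gamma-secretase that Notch needs, or with the vehicle DMSO. Both samples were intestinal organoids of C57Bl mice aged 3 to 4 months, and the treatment text of both names 300 nM 4-OH-tam and 10 uM DBZ, so the sample titles decided the groups. The Apc allele, the driver of any recombinase and the number of animals or cultures behind each library are not known from the labels. Single cells were captured in droplets, aiming at 3000 cells a sample.

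With 1 library a treatment there was no replicate check of any difference between DBZ and DMSO, and cells are not replicates, so no test was run and intervals cover counting error only. Cells held 5187 to 59745 UMIs in the DBZ library (median 10901) and 5241 to 56915 in the DMSO library (median 11183), and the libraries shared 3 barcodes. Defa22 cells were the shallowest set under DBZ. Their median was 9696 UMIs there, against 13237 in Defa24 cells and 10736 in other cells, and under DMSO it was 11122 against 18767 and 11083. A doublet caller marked 2 DBZ cells, 1 of them a Defa22 cell, and 6 DMSO cells, none of them a Defa22 cell. It marked 0.161% of the DBZ cells, and 0.620% of the DMSO cells, and no cell was removed. Doublets among Defa22 cells were not tested in another way. Of the highest 5% of cells by UMIs in each library, 5 under DBZ and 1 under DMSO were Defa22 cells. Of the marker lists for cells outside the epithelium, only Cd74 of 8 immune genes and Vim of 6 fibroblast genes were in the table. The Wnt target Axin2, which mutant Apc leaves active, was seen in 93.1% of other DBZ cells and 87.9% of other DMSO cells.

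Defa22 stands at chr8:21162277-21163249 and Defa24 at chr8:21734494-21735471, both protein-coding genes on the plus strand of the mouse build mm10 (GRCm38). All 23 alpha-defensin genes of the table lie in this cluster on chromosome 8. The table names 10 of them Defa plus digits and 13 by older names, which the rule did not count. RefSeq gives Gm15308 as Defa32, Gm15293 as Defa41, Gm21002 as Defa33 and Gm15284 as Defa30. The promoters show how alike the genes are. Of the 23 genes, 12 matched an entry in the RefSeq promoter table of GRCm38.p6. The 150 bases before the start of 6 of them are printed here 5′ to 3′ on the plus strand, 4 that were high in Defa22 cells (Defa22, Defa21, Defa20, Gm15308) and 2 that were low there and higher in Defa24 cells (Gm15284, Defa23). Defa20 was high in DBZ Defa24 cells too, with 68981 UMIs over 97 cells (median depth 13237 UMIs). The 108 DBZ Defa22 cells held 56980 UMIs of it (median depth 9696). Capitals mark ATCAAAG, a core motif of the Wnt-regulated TCF/LEF factors, and TATAAA. They span chr8:21162127-21162276, chr8:21025395-21025544, chr8:21509108-21509257, chr8:21528880-21529029, chr8:21134500-21134649 and chr8:21054890-21055039.
Defa22: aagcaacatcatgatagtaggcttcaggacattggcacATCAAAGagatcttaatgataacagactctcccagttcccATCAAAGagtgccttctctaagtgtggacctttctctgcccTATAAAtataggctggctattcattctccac
Defa21: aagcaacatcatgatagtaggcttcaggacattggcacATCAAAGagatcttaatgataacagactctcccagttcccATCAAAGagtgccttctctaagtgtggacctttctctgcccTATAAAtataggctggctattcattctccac
Defa20: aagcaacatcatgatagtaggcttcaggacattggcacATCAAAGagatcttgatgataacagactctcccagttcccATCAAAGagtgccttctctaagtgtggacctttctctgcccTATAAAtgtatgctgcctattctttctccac
Gm15308: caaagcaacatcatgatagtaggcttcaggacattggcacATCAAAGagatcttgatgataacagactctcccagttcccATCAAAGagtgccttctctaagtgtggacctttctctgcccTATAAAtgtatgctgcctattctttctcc
Gm15284: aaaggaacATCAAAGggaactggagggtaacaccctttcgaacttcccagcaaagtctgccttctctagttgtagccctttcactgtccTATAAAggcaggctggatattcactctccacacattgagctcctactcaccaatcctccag
Defa23: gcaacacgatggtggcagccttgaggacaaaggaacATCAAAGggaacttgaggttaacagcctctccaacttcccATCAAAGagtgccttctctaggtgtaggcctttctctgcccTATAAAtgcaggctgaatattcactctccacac

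Over the 250 bases before the start, the Defa21 promoter was identical to that of Defa22. Defa20 matched Defa22 in 245 of 250 aligned bases (98%) and Gm15308 in 243 of 248 (98.0%). Gm10104, Gm15293 and Gm14850 matched in 91.1%, 90.3% and 90.2%. Gm14850 was among these although its mean was lower in DBZ Defa22 cells than in Defa24 cells. Defa23 and Gm15284, both low in Defa22 cells, matched Defa22 in 79.2% and 76.9%, and each other in 199 of 222 bases (89.6%). Defa24, Defa17, Defa3 and Defa26 had no entry in the promoter table. The genes that led in Defa24 cells were therefore not compared, and no contrast of promoters between the kinds of cell is drawn. ATCAAAG, searched on both strands in these 250 bases, occurred in 2 copies before Defa20, Defa21, Defa22, Defa23, Gm10104, Gm15293 and Gm15308 and in 1 copy before Gm14850, Gm15284 and Gm6696. Neither Gm14851 nor Gm7861 had it in this window. Of 32851 mouse promoters of the same length, 3.21% held at least 1 copy and 27 held 2 or more, 9 of them alpha-defensin promoters. TATAAA occurred in 12.4% of all promoters. These matches are letters in a window and say nothing of binding.

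Near-identical transcripts limit which gene a read can name. In the last 300 bases of each transcript, where 3′ reads of 91 bases fall, every window of 91 bases of Defa24 was found in no other gene. For Defa22 and Defa21 it was 61.4%, the rest being shared between these 2 genes. For Defa20, Gm15308 and Defa5 it was 0.476%, and for Gm21002, Gm14850, Gm15315 and Defa23 it was 0%. Defa17 and Defa3 shared most windows with each other (13.3% unique to each), Gm7861 had 8.57% unique windows, and those of Defa23 were shared with Defa31 and Gm15284. The levels of all these genes as single genes, and in part the split between Defa22 and Defa21, are therefore uncertain. Defa22 shared no window with Defa24, but its uncertain level also enters the comparison with Defa24 that the rule uses.

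Within the alpha-defensins, Defa22 was the leading gene of 34 of 108 DBZ members, so the cells were dominated by it only in comparison with Defa24. In the 108 DBZ cells Defa22 ranged from 13.2 to 1974 per 10000 UMIs with a median of 312. Defa21 ranged from 0 to 1454 (median 206), Defa20 from 4.11 to 2150 (median 304) and Gm15308 from 14.8 to 1559 (median 339). Defa24 ranged from 1.35 to 217 (median 10.4). Defa20, Defa21 and Defa22, with almost the same promoter, made up most of the sum, and Defa24 little of it. In the 16 DMSO cells the medians were 324 for Defa22, 228 for Defa21, 297 for Defa20, 193 for Gm15308 and 2.45 for Defa24, of which 4 cells had no UMI.

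As a share of each cell's alpha-defensin sum, Defa20 had a median of 34.2% in DBZ Defa22 cells, Defa22 32.7%, Defa21 26.7% and Defa24 1.21%. The highest of the 10 genes was Defa20 in 48 cells, Defa22 in 34 and Defa21 in 26. In DMSO Defa22 cells the shares were 41.5% for Defa22, 27.9% for Defa21 and 22.8% for Defa20, and Defa22 was the highest in 8 of 16. Defa24 cells of the DBZ library had another makeup. There Defa24 took 51.0% and Defa17 8.19%, and Defa20 still took 18.4%. Defa22 was at least 2 times Defa24 in 101 of 108 DBZ and 14 of 16 DMSO Defa22 cells, and at least 10 times in 81 and 11. The plot of both genes shows few alpha-defensin cells near the line of equal levels.

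**Figure D1:**
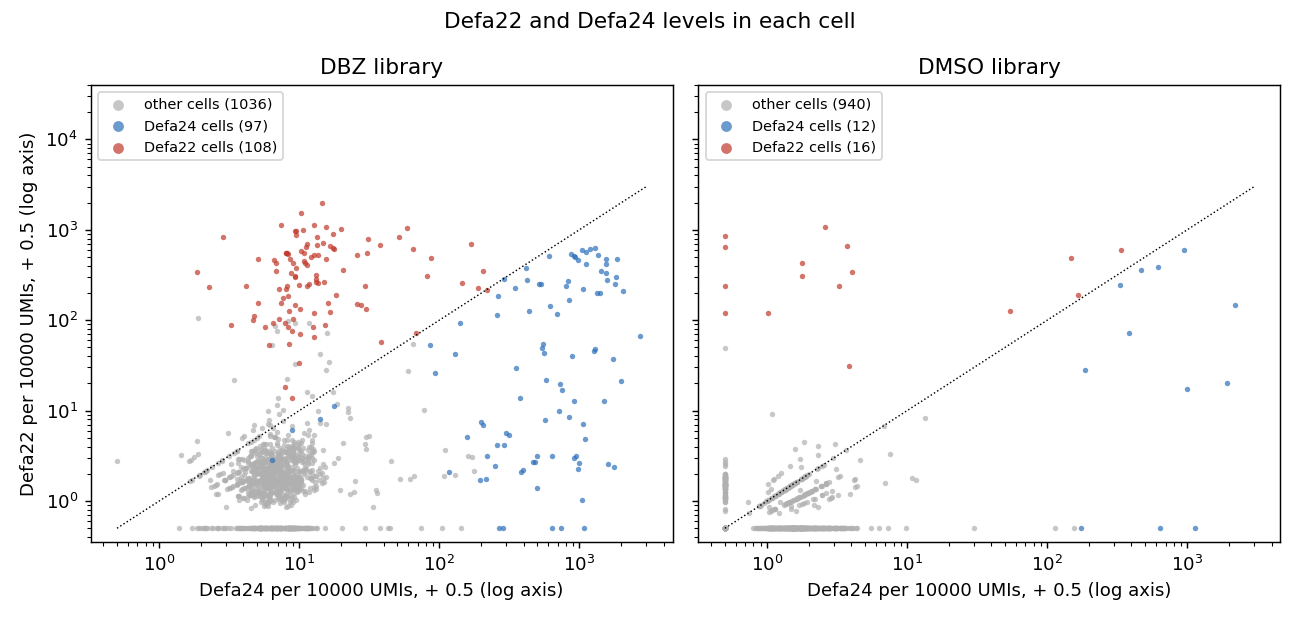
Each point is 1 cell, with its Defa24 level on the x axis and its Defa22 level on the y axis, both per 10000 UMIs with 0.5 added on log axes, for the DBZ (left) and DMSO (right) libraries. The 108 and 16 Defa22 cells (red) lie above the dotted line of equal levels, with a median Defa24 of 10.4 per 10000 under DBZ, and the 97 and 12 Defa24 cells (blue) lie on or below it.

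The defensins under older names split the same way between both kinds of cell. Gm15308 averaged 456 per 10000 UMIs in DBZ Defa22 cells and 210 in DBZ Defa24 cells. Gm15293 averaged 18.8 and 9.65, Gm21002 46.6 and 28.6, and Gm10104 3.25 and 1.37. These 4 lay on the side of Defa22. On the other side, Gm15284 averaged 4.95 in Defa22 cells and 167 in Defa24 cells, Gm7861 0.589 and 5.81, and Gm14851 0.136 and 3.19. Gm14850 (38.7 and 74.8) and Gm15315 (7.59 and 11.4) were also higher in Defa24 cells, by less than Gm15284, Gm7861 and Gm14851. Among genes named Defa, Defa17 averaged 3.71 and 195, Defa3 0.202 and 12.4, Defa26 0.0984 and 3.67 and Defa23 0.0589 and 3.71, while Defa5 was near level at 14.4 and 10.8. Under DMSO, Gm15308 (483 and 248), Gm15284 (19.8 and 180) and Defa17 (27.5 and 202) kept these sides. Defa23, Defa25, Gm14851, Gm15292, Gm15299 and Gm6696 were listed at 0 in Defa22 and Defa24 cells of the DMSO library.

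**Figure D2:**
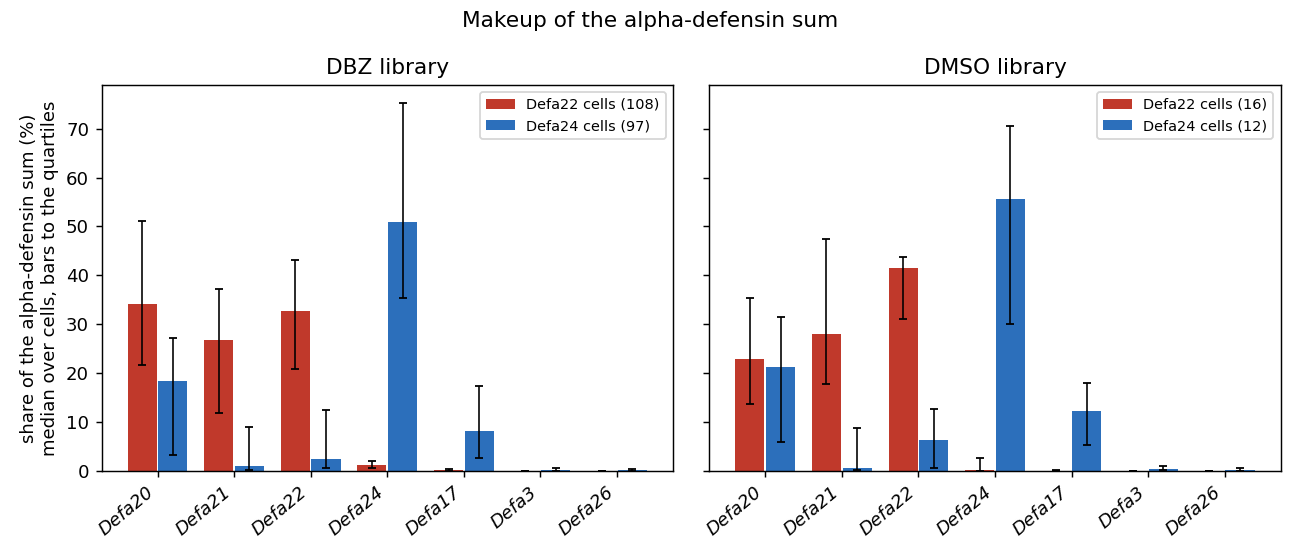
Bars give the median share of the alpha-defensin sum (%) taken by 7 genes in Defa22 cells (red) and Defa24 cells (blue) of each library, and lines reach from the lower to the upper quartile over cells. Defa20, Defa21 and Defa22 made up most of the sum in Defa22 cells (34.2%, 26.7% and 32.7% in the DBZ library), and Defa24 51.0% of it in Defa24 cells.

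Cells with little alpha-defensin RNA held some of it too. In the 875 other DBZ cells with a sum under 20, Defa24 averaged 6.06 per 10000 UMIs, Defa20 3.41 and Defa22 1.24, and 99.9% of these cells had a UMI of Defa24 at a median of 10901 UMIs. In the 926 such DMSO cells the values were 0.834, 0.700 and 0.281. The median Defa24 of 10.4 in DBZ Defa22 cells stood close to that level. Free RNA in the droplets and low expression cannot be told apart here, since no empty droplets were analysed. Taking both naming schemes together, alpha-defensins made up a median of 15.4% of all UMIs in DBZ Defa22 cells, with a highest cell at 49.0%, and 13.3% in DMSO Defa22 cells. Every other gene is diluted by that share in levels per 10000 UMIs.

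Defa22 cells were 8.70% of the DBZ library (exact Clopper-Pearson 95% interval 7.19% to 10.4%) and 1.65% of the DMSO library (0.948% to 2.67%). Defa24 cells were 7.82% (6.38% to 9.45%) and 1.24% (0.642% to 2.16%). The balance of both kinds was thus alike in both libraries, with 108 and 97 cells under DBZ and 16 and 12 under DMSO. By the size of the sum, Defa22 was the higher gene in 16 of 33 DBZ cells between 200 and 400, in 26 of 42 between 400 and 800, in 34 of 59 between 800 and 1600 and in 32 of 67 from 1600 up. The sums of Defa22 cells ran from 205 to 3502 with a median of 1039 under DBZ and from 278 to 3602 with a median of 785 under DMSO.

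Outside the defensins, Defa22 cells carried the granule genes of enteroendocrine cells. Chgb, coding the granule protein chromogranin B (chr2:132781278-132795079), ranged from 0 to 223 per 10000 UMIs over the 108 DBZ Defa22 cells with a median of 2.81, and its median was 0 in the 97 Defa24 cells. Cpe, carboxypeptidase E, which trims prohormones, ranged from 0 to 25.4 (median 4.32), and Pcsk1n, coding an inhibitor of prohormone convertase 1, from 0 to 22.7 (median 3.59). Both had a median of 0 in Defa24 cells. A UMI of Chgb was seen in 87.0% of DBZ Defa22 cells (79.2% to 92.7%), against 28.9% of Defa24 cells and 24.7% of other cells. For Cpe the shares were 95.4%, 39.2% and 34.5%, and for Pcsk1n 84.3%, 18.6% and 19.2%. The median depths were 9696, 13237 and 10736 UMIs, so the deeper Defa24 cells had the lower shares. Other cells include cells with all 3 of these genes, so their shares are no background level, and the part of free RNA was not tested. With every cell thinned to 5000 UMIs, which left out 0 cells, Chgb was seen in 73.1%, 14.4% and 14.8%.

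These 3 granule genes occurred together in single cells. All 3 were seen in 81 of 108 DBZ Defa22 cells (75%, 65.7% to 82.8%), in 7 of 97 Defa24 cells (7.22%, 2.95% to 14.3%) and in 101 of 1036 other cells (9.75%, 8.01% to 11.7%). After thinning these shares were 47.2%, 2.06% and 7.34%. Under DMSO all 3 were seen in 10 of 16 Defa22 cells (62.5%, 35.4% to 84.8%), in 0 of 12 Defa24 cells (upper end of the interval 26.5%) and in 23 of 940 other cells (2.45%). Read the other way, 81 of the 189 DBZ cells with all 3 genes were Defa22 cells (42.9%), 7 were Defa24 cells and 101 had a sum under 200. Of the 33 such DMSO cells 10 were Defa22 cells.

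As a list, the enteroendocrine genes were higher in Defa22 cells. A gene was compared when at least 10% of either set of cells had a UMI of it, and the difference is log2 of the ratio of mean levels with 0.05 added to each. Against other DBZ cells, 10 of the 18 enteroendocrine genes compared were at least 2-fold higher and 3 at least 2-fold lower, with a median log2 difference of 1.33. Over all 9004 genes compared, 3.59% were at least 2-fold higher and 5.34% lower, with a median of -0.14. Against DBZ Defa24 cells, 13 of 18 were higher and 2 lower, with a median of 1.37, against 8.35% higher and 2.98% lower of 8853 genes and a median of 0.25. Inside the DMSO library 16 of 18 were higher than in other cells (median 2.22, against 8.1% of all genes). There 15 of 19 were higher than in Defa24 cells (median 2.91, against 27.5%). Genes can pass the 10% filter through the 16 DMSO Defa22 cells alone, so nothing is read from the DMSO counts. Summed over all 25 enteroendocrine genes in the table, mean levels under DMSO were 36.4 in Defa22 cells, 6.12 in Defa24 cells and 6.80 in other cells. Under DBZ these sums were 44.2, 19.1 and 25.8. The comparisons with other cells and with Defa24 cells share the Defa22 cells. Defa24 cells set against other DBZ cells gave 3 of 16 enteroendocrine genes at least 2-fold higher and 3 lower (median -0.37), against 1.38% and 5.36% of all genes.

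The genes on the list that led were granule proteins and regulators. Pcsk1n averaged 5.45 per 10000 UMIs in DBZ Defa22 cells against 0.797 in other cells, a log2 difference of 2.70 (counting interval of the pooled UMI ratio 2.80 to 3.12), and against 0.516 in Defa24 cells (3.28, interval 3.29 to 4.15). Scg5, a granule chaperone, averaged 1.95 against 0.271 and 0.432 (2.64 and 2.05). Scg2, secretogranin II, averaged 1.31 against 0.458 and 0.327. Chgb averaged 7.79 against 3.91 in other cells, a log2 difference of 0.99, with a few other cells at very high levels, and against 0.803 in Defa24 cells (3.20). Chga, chromogranin A, was seen in 68 of 108 DBZ and 8 of 16 DMSO Defa22 cells, and its mean of 1.73 was above the 0.593 of Defa24 cells. Cadps, which primes dense-core vesicles for release, averaged 1.05 against 0.0974 and 0.112.

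Hormone genes split. Secretin (Sct) averaged 6.26 per 10000 UMIs in DBZ Defa22 cells, 1.07 in Defa24 cells and 2.62 in other cells, and 72.2% of Defa22 cells had a UMI of it against 36.1% and 26.2%. Hdc, the histamine-forming enzyme, averaged 2.01, 0.843 and 0.321 and was seen in 25.9% of Defa22 cells. Iapp, islet amyloid polypeptide, averaged 0.882, 0.119 and 0.208. Gip, Nts and Ghrl were on the other side against other cells, at 0.143 against 3.58, 0.275 against 1.89 and 0.641 against 1.64. Those other-cell means rest on few cells, since Gip was seen in 13.1% of them and Ghrl in 11.9%. Without the highest cell of each set the log2 difference of Gip was -0.94 in place of -4.23. Under DMSO, Sct averaged 5.31 in Defa22 cells, 0.245 in Defa24 cells and 0.706 in other cells.

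**Figure D3:**
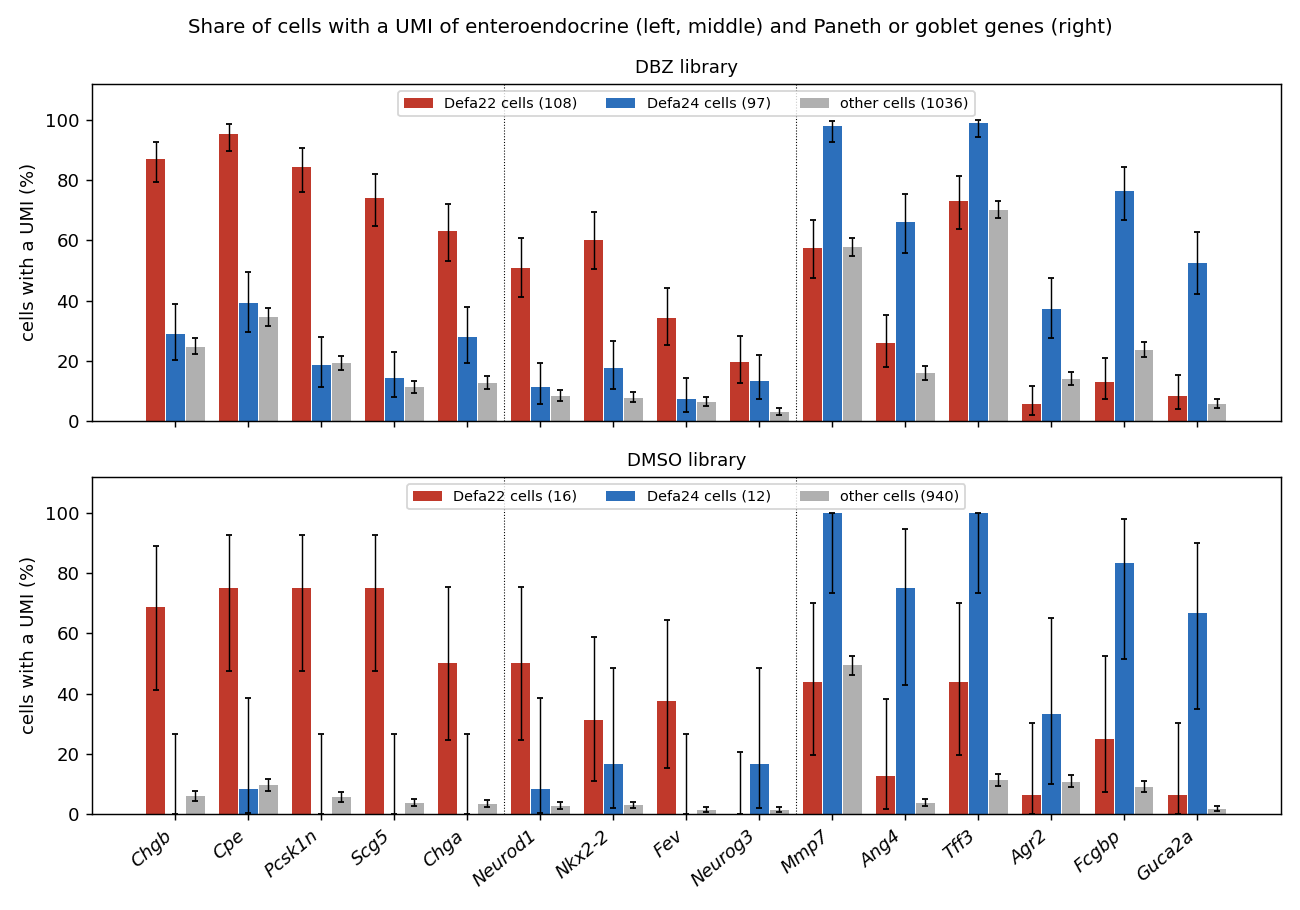
Bars give the share of cells (%) with at least 1 UMI of 5 enteroendocrine granule genes, 4 enteroendocrine regulators and 6 Paneth or goblet genes in Defa22 cells (red), Defa24 cells (blue) and other cells (grey), for the DBZ (top) and DMSO (bottom) libraries, and lines give exact 95% binomial intervals that cover counting error only. Granule genes stood highest in Defa22 cells (Cpe 95.4% under DBZ) and Paneth and goblet genes in Defa24 cells (Mmp7 97.9%).

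Regulators of enteroendocrine cells were also higher. Neurod1, an enteroendocrine factor downstream of Neurog3, was seen in 50.9% of DBZ Defa22 cells, 11.3% of Defa24 cells and 8.30% of other cells, with means of 1.80, 0.614 and 0.262 per 10000 UMIs. Nkx2-2 was seen in 60.2% of DBZ Defa22 cells with a mean of 1.21 against 0.175 in other cells (log2 difference 2.48). Fev averaged 0.832 against 0.0636 in Defa24 cells (2.96), Insm1 1.04 against 0.484 (1.03) and Foxa2 0.342 against 0.134 in other cells (1.09). The regulators of Paneth and goblet cells were rare. Atoh1, which opens the secretory lineage, was seen in 5.56% of DBZ Defa22 cells and 19.6% of Defa24 cells, Gfi1 in 1.85% and 10.3%, Spdef in 4.63% and 16.5%, and Bhlha15 in 11.1% and 27.8%. Atoh1, Gfi1 and Spdef were listed at 0 in the whole DMSO library. Sox9, a Paneth and stem cell factor, averaged 2.95 in DBZ Defa22 cells and 2.82 in other cells. Of 13 secretory regulators compared with other DBZ cells, 4 were at least 2-fold higher and 1 lower, against 3.59% and 5.34% of all genes.

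Neurog3 (chr10:62133090-62134763) marked a minority. It was seen in 21 of 108 DBZ Defa22 cells, with levels up to 26.5 per 10000 UMIs and a median of 0. Its mean was 1.74 in Defa22 cells, 0.699 in Defa24 cells and 0.298 in other cells, and 13.4% of Defa24 cells and 3.09% of other cells had a UMI of it. Under DMSO it was seen in 0 of 16 Defa22 cells, which allows a share with a UMI of up to 20.6% (upper end of the exact interval), in 2 of 12 Defa24 cells and in 14 of 968 cells in all. Without the 21 Neurog3 cells and the 13 Neurog3-positive Defa24 cells, an alternative added after seeing the data, the enteroendocrine median against Defa24 cells was 1.73.

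Paneth and goblet products were lower in Defa22 cells than in Defa24 cells. Mmp7 (chr9:7692090-7699585) ranged from 0 to 8.93 per 10000 UMIs with a median of 0.945 in DBZ Defa22 cells and from 0 to 90.2 with a median of 12.6 in Defa24 cells. The goblet peptide Tff3 (chr17:31125306-31129646) ranged from 0 to 69.2 (median 1.28) in Defa22 cells and from 0 to 539 (median 80.7) in Defa24 cells. The means in DBZ Defa22 cells were 1.46 for Mmp7 and 3.50 for Tff3, near the means of 2.03 and 3.86 in other cells. In the other DBZ cells with a sum under 20, Tff3 was seen in 68.6% and Mmp7 in 56.8%, close to the 73.1% and 57.4% of Defa22 cells, and nothing is read from these shares. Against Defa24 cells, 11 of 15 Paneth products compared were at least 2-fold lower (median log2 difference -2.22) and 6 of 8 goblet genes (median -3.57). Of all genes compared, 2.98% were at least 2-fold lower.

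Ang4, an antimicrobial ribonuclease of Paneth cells, averaged 0.406 against 24.4 in Defa24 cells, a log2 difference of -5.74 (interval -6.52 to -5.70). Among the other Paneth products, Clps (0.622 and 7.51), Nupr1 (0.227 and 5.92), Reg3g (0.101 and 1.58), Reg3b (0.0588 and 1.05) and the lectin Itln1 (17.5 and 75.4) were lower by at least 2-fold. Guca2a averaged 0.0696 and 5.34, the IgG-binding mucus protein Fcgbp 0.170 and 4.24, and Agr2, a disulfide isomerase that mucin folding needs, 0.0529 and 2.39. Pla2g2f and Tesc went the other way, at 5.61 against 1.80 and 1.88 against 0.811. The goblet peptide Spink4 averaged 8.15 in DBZ Defa22 cells and 0.688 in other cells, a log2 difference of 3.47, but 1 cell at 577 per 10000 set much of it. Without the highest cell of each set the difference was 2.11, and the share of cells with Spink4 was 45.4% against 42.4%.

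Against other DBZ cells, Paneth products were near level, with 1 of 12 at least 2-fold higher, 2 lower and a median of -0.20, which was 0.08 per 10000 UMIs outside the alpha-defensins. Clps was the 1 higher, at 0.622 against 0.110, and Reg3b and Reg3g were lower. Of all genes compared under DBZ, 3.59% were at least 2-fold higher and 5.34% lower. Under DMSO, 4 of 12 Paneth products were at least 2-fold higher than in other cells and 2 lower (median 0.52), against 8.1% and 13.9% of all genes. Goblet genes were higher on balance than in other cells, with 2 of 7 at least 2-fold higher and 1 lower under DBZ (median 0.57) and 4 of 7 higher and 1 lower under DMSO (median 1.38). Their median sum per cell under DMSO was 2.61 in Defa22 cells and 0.965 in other cells, and the highest of the 16 stood at 569.5. Under DMSO the split from Defa24 cells was the same for Mmp7 (1.33 and 28.1), Tff3 (13.5 and 97.4) and Ang4 (1.89 and 29.2). There, 6 of 14 Paneth products were at least 2-fold lower, against 10.8% of all genes, with a median of -0.82.

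**Figure D4:**
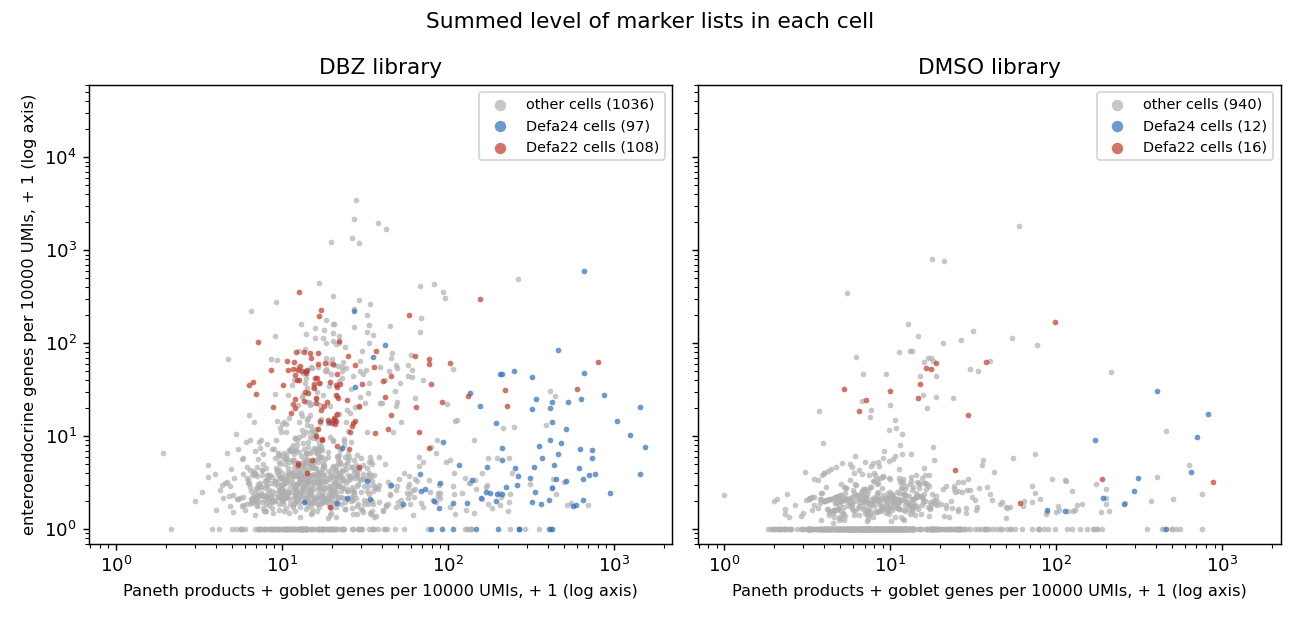
Each point is 1 cell, with the summed level of the Paneth product and goblet lists on the x axis and of the enteroendocrine list on the y axis, both per 10000 UMIs with 1 added on log axes. DBZ Defa22 cells (red) had a median enteroendocrine sum of 31.6 against 2.94 in Defa24 cells (blue) and 2.14 in other cells (grey), and a few Defa22 cells lie among the Defa24 cells at the right.

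Summed over the list, enteroendocrine genes ranged from 0.727 to 351 per 10000 UMIs over DBZ Defa22 cells with a median of 31.6. The medians were 2.94 in Defa24 cells and 2.14 in other cells. Paneth products had a median sum of 14.2 in Defa22 cells, 99.9 in Defa24 cells and 12.1 in other cells. Goblet genes had medians of 3.20, 123 and 2.25. The middle of the Defa22 cells therefore resembled other cells in Paneth and goblet products and stood above both sets in enteroendocrine genes. A median of 9 of the 25 enteroendocrine genes in the table was seen in a Defa22 cell, against 3 and 2.

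Wnt3 (chr11:103774150-103817957), a Wnt ligand that Paneth cells supply to stem cells, was high in both kinds of alpha-defensin cell. It averaged 1.12 per 10000 UMIs in DBZ Defa22 cells, 0.630 in Defa24 cells and 0.139 in other cells, and was seen in 54.6%, 41.2% and 7.53% of them. The log2 difference from other cells was 2.63, and under DMSO it was 3.05. Ephb3, a receptor that positions Paneth cells, averaged 0.938, 0.473 and 0.374, and Kit 0.455, 0.336 and 0.184. Wnt6 was lower than in other cells (0.762 against 2.41), as were Areg (0.180 against 0.730) and the Paneth and stem cell surface protein Cd24a (4.90 against 11.4). Of the 9 niche signals compared with other DBZ cells, 3 were at least 2-fold higher and 3 lower, against 3.59% and 5.34% of all genes. Shh (chr5:28456815-28467256), the hedgehog ligand, ranged from 0 to 14.3 in DBZ Defa22 cells and was seen in 29.6% of them. It was seen in 4.12% of Defa24 cells and 5.69% of other cells, with means of 0.919, 0.0384 and 0.175.

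Wnt targets were mixed. Of 24 compared with other DBZ cells, 2 were at least 2-fold higher and 7 lower (median log2 difference -0.62), against 3.59% and 5.34% of all genes. Ephb3 and Bambi (1.10 against 0.466) were the higher ones, and the secreted Wnt inhibitor Notum (5.65 against 16.9), Sp5 (0.742 against 2.28) and Rnf43 (0.524 against 1.47) were among the lower ones. Prox1, a Wnt target in intestinal tumours, was seen in 104 of 108 DBZ and 16 of 16 DMSO Defa22 cells at means of 7.43 and 7.07, against 10.1 in other DBZ cells. Stem cell genes were lower on balance than in other DBZ cells, with 5 of 17 at least 2-fold lower and 0 higher, against 5.34% and 3.59%. Lgr5 was seen in 49 of 108 and 7 of 16 Defa22 cells, and Slc12a2 averaged 0.365 against 1.57. Under DMSO the Wnt target median against other cells was 0.02, with 2 of 24 at least 2-fold higher and 7 lower, against 13.9% of all genes lower.

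The Notch target Hes1 (chr16:30064384-30067796) was low in Defa22 cells. It was seen in 25 of 108 DBZ Defa22 cells (23.1%) and 48.8% of other DBZ cells, with means of 0.288 and 0.945 per 10000 UMIs, a log2 difference of -1.56. Under DMSO it was seen in 9 of 16 Defa22 cells with a mean of 0.836 against 3.41 in other cells (-1.96). Of 4 Notch targets compared, 3 were at least 2-fold lower under DBZ and 2 under DMSO, against 5.34% and 13.9% of all genes. Genes of dividing cells were low. All 21 mitosis genes compared were at least 2-fold lower than in other DBZ cells (median -1.62), Cdk1 averaged 0.0743 against 0.451, and the proliferation marker Mki67 was seen in 4 of 108 cells. Defa24 cells shared this, with all 21 mitosis genes lower than in other DBZ cells, 10 of them by at least 2-fold (median -0.98), and 4 of 4 Notch targets lower (median -0.66). DNA replication genes were lower in 21 of 21, 7 of them by at least 2-fold. Genes can pass the 10% filter through the other cells alone, so nothing is read from the counts of mitosis and replication genes. Summed over all 24 mitosis genes in the table, mean levels under DBZ were 1.25 in Defa22 cells, 2.99 in Defa24 cells and 7.05 in other cells. Over all 28 DNA replication genes these sums were 5.29, 6.23 and 8.94. Under DMSO, 1 of 24 mitosis genes was at least 2-fold lower (median -0.37), and Mki67 was seen in 3 of 16 Defa22 cells. The tuft cell list gave 3 genes to compare and a median of -1.20 under DBZ, but 2 genes and 0.13 under DMSO.

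**Figure D5:**
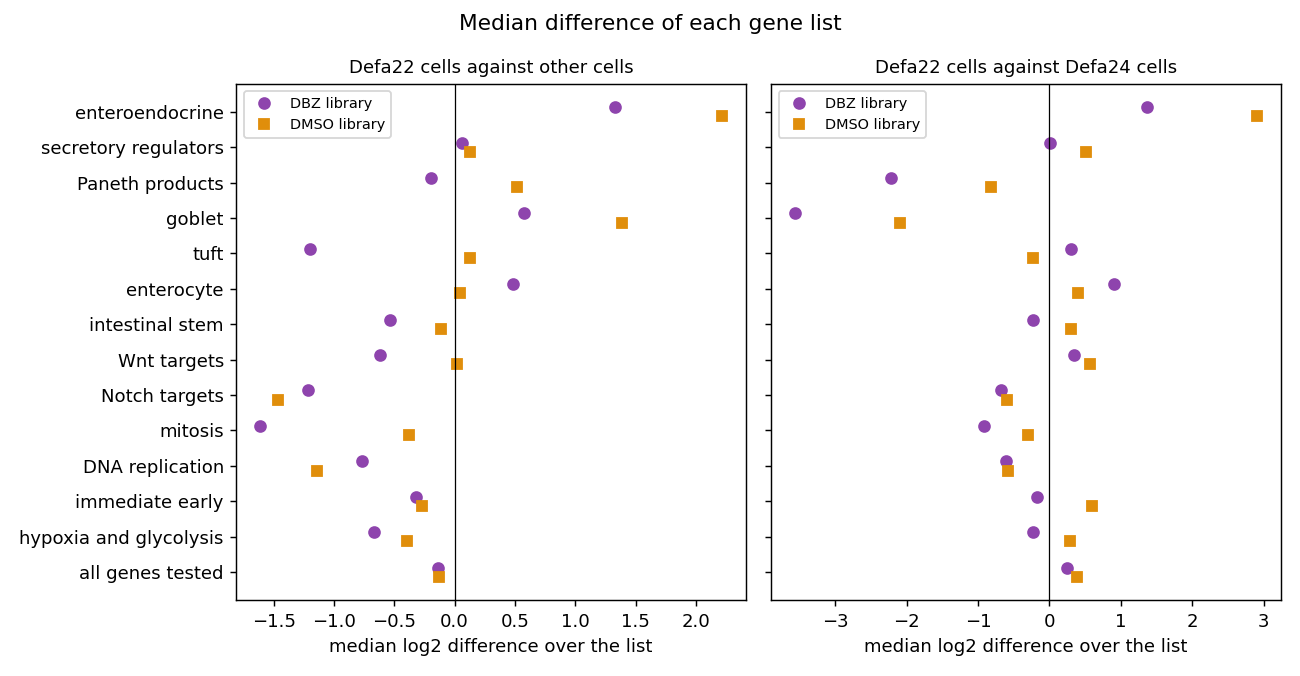
Points give the median log2 difference over the genes of each list between Defa22 cells and other cells (left) or Defa24 cells (right), for the DBZ (circles) and DMSO (squares) libraries. The enteroendocrine list stood highest of those drawn in both panels (1.33 and 1.37 under DBZ), Paneth products and goblet genes stood at -2.22 and -3.57 against Defa24 cells under DBZ, and the median of all genes compared is the bottom row.

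By size of difference from other DBZ cells, among genes seen in at least 25% of either set, the first 10 places were taken by alpha-defensins. The highest outside them, listed after their values were seen, were Spink4, Cadps, Ets1, Pcsk1n, Scg5, Wnt3, Lamb3, Epha5, Neurod1, Nell1, Map1b, Nkx2-2, Hdc, Bex2 and Celf3, at log2 differences from 3.47 down to 2.46. The transcription factor Ets1 (chr9:32636221-32757820) averaged 1.06 against 0.119 and was seen in 53.7% against 8.40% of cells. The laminin chain Lamb3 averaged 1.16 against 0.149, the microtubule protein Map1b 1.51 against 0.214 and Bex2 4.88 against 0.841. The 10 lowest were Il33, Vim, Arl14, Ifitm3, Dtna, Irx5, Rnd3, Mgst1, Slc14a1 and Cyr61, from -2.69 to -2.13. The alarmin Il33 averaged 0.310 against 2.27, the intermediate filament Vim 1.17 against 6.58, the interferon-induced Ifitm3 3.91 against 19.1 and the matricellular Cyr61 0.793 against 3.63.

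Against Defa24 cells the 12 highest were Shh, Epha5, Pcsk1n, Chgb, Sez6l2, Cd83, Fev, Gria2, Cadps, Riiad1, Cryba2 and Resp18, from 3.45 to 2.60. The ephrin receptor Epha5 averaged 0.615 against 0.0144, the glutamate receptor subunit Gria2 0.492 against 0.0297 and Resp18 1.12 against 0.142. The 12 lowest were Ang4, Defa17, Defa3, Guca2a, Tff3, Defa23, Defa24, Gm15284, AY761184, Defa26, Rnase1 and Agr2, from -5.74 to -4.57. The ribonuclease Rnase1 averaged 0.102 against 3.57.

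Defa22 cells varied among themselves. In the DBZ library the enteroendocrine sum did not follow the alpha-defensin sum (Spearman's rho 0.06 over 108 cells of 1 library), and it was lower in cells with more UMIs (rho -0.47). The 36 shallowest cells, with 5702 to 8350 UMIs, had a median enteroendocrine sum of 41.2 per 10000 UMIs and 11 Neurog3 cells, the 36 in the middle 30.8 and 5, and the 36 deepest, from 11968 to 39485 UMIs, 17.0 and 5. Even the deepest stood above the 2.94 of Defa24 cells. Between defensins, Defa22 went with Defa21 at 0.57, with Defa20 at 0.40 and with Defa24 at 0.26, and Defa20 with Gm21002 at 0.86. These correlations are across cells that share a library, and the last joins genes whose reads cannot be told apart.

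The ratio of Defa22 to Defa24 went with enteroendocrine genes in the 16 DMSO cells, and whether it did so less in the DBZ cells was not tested. Of the 11 DMSO cells with Defa22 at least 10 times Defa24, 9 had all of Chgb, Cpe and Pcsk1n, and their enteroendocrine sums ran from 16.0 to 170. Of the 5 under 10 times, 1 had all 3 genes and 4 had none or 1, with sums from 0.912 to 59.9 and a median of 2.48. Those 5 cells had Paneth product sums from 15.3 to 306, against 2.86 to 25.7 in the 11. In the DBZ library 63 of 81 cells at or above 10 times had all 3 genes, and 18 of 27 under it, with median enteroendocrine sums of 30.6 and 32.4. The grouping was made after the values were seen, and the number of DMSO cells is small.

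Between the treatments, 108 and 16 Defa22 cells were compared. The rule chose both groups by the same alpha-defensin values, so their defensin levels are a description from which nothing is read. Defa22 averaged 415 per 10000 UMIs in DBZ and 403 in DMSO Defa22 cells, Defa21 322 and 314, Defa20 459 and 407, and Gm15308 456 and 483. Defa24 averaged 22.9 and 45.1, with medians of 10.4 and 2.45. Of 9 alpha-defensins named Defa, Defa25 was at least 2-fold higher under DBZ and Defa17, Defa26 and Defa3 lower, where 12.7% and 6.35% of 9153 genes were higher and lower. Defa25 had 15 UMIs in the DBZ Defa22 cells and none in the whole DMSO library, so the pseudocount sets its fold. Of the 16 DMSO Defa22 cells, Defa3 was seen in 1, Defa26 in 2 and Defa17 in 7. Without the highest cell of each set the log2 difference of Defa17 was 1.13. Chgb averaged 7.79 and 5.48, Cpe 5.44 and 5.52, Pcsk1n 5.45 and 6.75, Scg5 1.95 and 2.21 and Wnt3 1.12 and 1.02. With 16 DMSO cells of 1 library, differences of this size cannot be told from none. Of 22 enteroendocrine genes compared, 6 were at least 2-fold higher under DBZ and 0 lower, against the same shares. In other cells, 10 of 12 enteroendocrine genes were at least 2-fold higher under DBZ, against 2.15% of all genes. The list median was 0.31 over the 22 genes in Defa22 cells and 1.52 over the 12 genes in other cells. The genes compared differ, so these medians are not like for like, and their difference was not tested.

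Mitosis and immediate early genes were lower in Defa22 cells under DBZ than under DMSO, where 6.35% of all genes compared were at least 2-fold lower. Mitosis genes were at least 2-fold lower in 16 of 17 compared under DBZ (median log2 difference -1.72), with Ccnb1 at 0.0674 against 0.659. Without the highest cell of each set the median was -0.83. Under DMSO, Ccnb1 was seen in 3 of 16 cells and Cdk1 in 2 of 16, which is enough to pass the 10% filter. Genes could thus enter through the DMSO cells alone, and nothing is read from the count. Summed over all 24 mitosis genes in the table, mean levels were 1.25 under DBZ and 7.28 under DMSO. In other cells 0 of 24 were at least 2-fold lower (median -0.36). Immediate early genes were at least 2-fold lower in 10 of 15 (median -1.11), with Fos at 1.73 against 5.71 and Atf3 at 2.53 against 9.17. They were lower in other cells too, in 11 of 15 against 1.33% of all genes there (median -1.20). The hypoxia and glycolysis list stood at a median of -0.66, with Car9 at 0.160 against 1.07, and at -0.48 in other cells. By size, the highest under DBZ were Ykt6, Cited1, Myt1, Neo1 and Ppm1l, which had no UMI in the 16 DMSO Defa22 cells and were seen in 13 to 293 of all DMSO cells. Their DBZ counts were 63 UMIs for Ykt6, 50 for Cited1, 47 for Neo1 and 45 each for Myt1 and Ppm1l, and the lower ends of the exact intervals of the log2 ratios were 1.45, 1.10, 1.01 and 0.94. Neurog3 had 157 UMIs against 0, with a lower end of 2.79. These genes were picked for their size of difference, and the intervals cover counting error only. The lowest were Acta1, Pnliprp2, Defa17, Iapp and Gdf15, from -3.16 to -2.83, and Iapp averaged 0.882 against 6.73. Each was seen in 4 to 7 of the 16 DMSO cells. Without the highest cell of each set the log2 differences were -1.91 for Acta1, -2.58 for Pnliprp2, -2.41 for Iapp and -1.62 for Gdf15. For Defa17 the means were 3.71 and 27.5, and without the highest cell of each set the log2 difference was 1.13.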

How the data were processed

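Droplet libraries (10x Chromium v2) of 1 DBZ and 1 DMSO organoid sample were sequenced with a mean of 113705 and 115754 reads per cell, per the labels. Reads were processed with Cell Ranger 2.1.1 and Seurat (no version given) on mm10, per the submitters' processing notes. The deposited values are natural log values, ln of 1 plus 10000 times a gene's share of the UMIs of a cell, and were made by the authors before deposit. The table held 13373 genes. Dividing by the value of 1 UMI gave whole numbers for 7553435 of 7553435 values above 0 (100%, tolerance 0.01), and these UMIs were used for pooled ratios and for thinning. Column names begin with GSI or CTRL, and these were read as gamma-secretase inhibitor (DBZ) and control (DMSO), a reading that the labels do not state.

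Members and gene lists were chosen with earlier results of these data known. Levels are means over cells of the value per 10000 UMIs. Differences are log2 ratios of means with 0.05 added, for genes seen in at least 10% of either set of cells, and counts are of genes past 2-fold. With 1 library a treatment no test was possible, no p-value is given, and depth limits each value through its UMIs: pooled ratios have exact conditional 95% intervals and shares exact Clopper-Pearson 95% intervals, which cover counting error only. Shares were recomputed with each cell thinned to 5000 UMIs. Scrublet with 5% expected doublets removed no cell. Genes named by size were the 15 highest and 10 lowest against other cells, the 12 highest and 12 lowest against Defa24 cells and the 5 highest and 5 lowest between treatments, among genes seen in at least 25% of either set, leaving out Rik, mitochondrial and ribosomal protein genes, Xist and most Gm genes. The list of highest genes outside the alpha-defensins was added after values were seen. List members were named besides.

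Promoters came from RefSeq (GRCm38.p6) and transcripts for the read windows from GENCODE M21 (GRCm38). The difference script was tested on simulated data for Defa22 cells against other cells under DBZ. Of 50 genes each raised 4-fold or 2-fold, 100% came out in the right direction, as did 98% at 0.5-fold and 100% at 0.25-fold. Of 8784 unchanged genes 99.9% stayed within 2-fold. At 0.25-fold the estimate lay a median of 0.45 log2 above the true value. The simulated cells were drawn from 1 pooled profile and differed only by counting error. The simulation therefore does not cover genes that are uneven from cell to cell, as several named here were. Python 3.11.15, numpy 2.4.6, scipy 1.17.1, scanpy 1.11.5, Biopython 1.88 and matplotlib 3.10.9 were used. Alternatives changed the pseudocount, the filter, the weight of cells, the depth, the scaling, the members and the cells compared with. Lyz1, Lyz2, Dclk1, Pyy and Sst were not used here.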

Additional observations from a re-analysis of the deposited data

Results flagged for a closer look

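Neurog3, the factor that starts enteroendocrine differentiation, went in opposite directions in the libraries when Defa22 cells were set against Defa24 cells. Under DBZ its log2 difference was 1.26, with 21 of 108 Defa22 cells and 13.4% of Defa24 cells holding a UMI. Under DMSO it was seen in 0 of 16 Defa22 cells and in 2 of 12 Defa24 cells. With 3 UMIs put in place of 0 over the 16 cells, against 19 UMIs in Defa24 cells, the DMSO log2 difference was -2.49, and the exact interval of the pooled ratio reached up to -2.05. Without the highest DMSO cell the Defa24 mean was 0.301 per 10000 UMIs in place of 1.18. The difference between the libraries was not tested, and it rests on 2 cells on the DMSO side.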

How the results depend on the processing

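No paired analysis was possible because each treatment had 1 library, and for the same reason no replicate could be left out. The share of Defa22 cells stayed within its interval under all 6 alternatives (7.41% to 9.91% under DBZ, 1.34% to 1.86% under DMSO). The Defa22 share of the alpha-defensin sum under DMSO was 31.0% from pooled UMIs in place of 41.5%.

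Against other cells, 323 genes were at least 2-fold higher and 481 lower. A pseudocount of 1 gave 34 and 24, a pseudocount of 0.01 gave 737 lower, pooled UMIs gave 313 lower, the DMSO library gave 743 and 1276, and levels outside the alpha-defensins gave 506 and 308. That scaling moved the median of all genes from -0.14 to 0.11. The enteroendocrine median (1.33) was 0.66 with a pseudocount of 1, 2.22 under DMSO and 3.76 against the 725 other cells without Chga, Chgb or Neurog3. Those genes are on the list, so leaving out cells that hold them raises its median by construction, and nothing is read from that value. The Paneth product median (-0.20) was 0.52 under DMSO, 0.08 outside the alpha-defensins and 0.06 after thinning. The mitosis median (-1.62) was -2.26 and -0.26 with pseudocounts of 0.01 and 1 and -0.37 under DMSO. The tuft median (-1.20) was 0.13 under DMSO.

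Against Defa24 cells, 739 genes were higher and 264 lower. Pseudocounts of 0.01 and 1 gave 1172 and 24 higher and 406 and 34 lower, the DMSO library gave 2507 and 985, and cells of 7000 to 15000 UMIs (77 and 52 cells, added after seeing the data) gave 397 lower. The enteroendocrine median (1.37) was 0.73 with a pseudocount of 1 and 2.91 under DMSO. The Paneth product median (-2.22) was -0.84 with a pseudocount of 1, -2.85 for sums of at least 400 and -0.82 under DMSO. The goblet median (-3.57) was -1.93 with a pseudocount of 1, -2.19 with a 1% filter, -4.24 after thinning, -4.29 without the highest cell, -4.46 with 2-fold dominance and -2.09 under DMSO.

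Between the treatments, 1161 genes were higher and 581 lower under DBZ. A pseudocount of 1 gave 7 and 21, and leaving out the highest cell of each gene gave 2520 and 236. The mitosis median (-1.72) was -2.45 and -0.32 with pseudocounts of 0.01 and 1 and -0.83 without the highest cell. The immediate early median (-1.11) was -0.52 with a pseudocount of 1. Ang4 turned from -2.09 to 2.19 without the highest cell. Among the values that answer a comparison, 130 under alternatives kept their direction and size and 42 moved in size or direction; the other values gave 544, with 65 moved and 2 turned in sign. A pseudocount of 1 shrinks low genes by construction, and leaving out cells by enteroendocrine genes raises the median of that list by construction. The cause of the other shifts was not tested.

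With 16 DMSO Defa22 cells, a gene seen in 0 of them can still be in up to 20.6% of such cells. Alternatives on scaling, on depth between 7000 and 15000 UMIs and on Neurog3 were chosen after seeing the data. Libraries, treatments and any difference of culture or capture cannot be told apart.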

Other observations

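Genes of the general secretory pathway stood at similar levels in Defa22 cells and in the other sets. Of 51 compared with other DBZ cells, 1 was at least 2-fold higher and 2 lower, with a median log2 difference of 0.03. Of all genes 3.59% and 5.34% were. Of 53 compared with DBZ Defa24 cells, 0 were higher and 4 lower (median 0.05), against 8.35% and 2.98% of all genes. Cholesterol synthesis genes gave 0 higher and 0 lower of 18 against other cells. The hypoxia and glycolysis list gave 1 higher and 3 lower of 19 (median -0.67), with Car9 at 0.160 against 0.838 per 10000 UMIs. Mitochondrial RNA made up a median of 3.75% of UMIs in DBZ Defa22 cells, 3.11% in Defa24 cells and 4.84% in other cells.

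Under a sum of 100, fewer DBZ cells held more Defa22 than Defa24. In the DBZ library Defa22 was the higher gene in 15 of 30 cells with a sum between 100 and 200, in 2 of 23 between 50 and 100 and in 8 of 108 between 20 and 50. Under DMSO the counts were 2 of 5, 1 of 2 and 2 of 7.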
